A study of Homo sapiens with 3 samples.

Results

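The metallothionein genes MT1A, MT1B, MT1E, MT1F, MT1G, MT1H, MT1M, MT1X and MT2A and the zinc exporter gene SLC30A1 were followed in A549 cells, a human lung adenocarcinoma cell line, after exposure to cordycepin or cordyceps. The members were fixed by gene name, and every array probe whose transcript accession maps to one of these symbols was taken, which gave 12 probes for 10 genes out of 58201 probes and 22435 named genes on the array. The control culture received 0.1% DMSO, the cordycepin culture 60 μg/mL of cordycepin (3'-deoxyadenosine, an adenosine analog made by the fungus Cordyceps militaris) and the cordyceps culture 100 μg/mL of cordyceps, each for 48 h. The labels do not say whether the treated cultures also received DMSO, so an effect of DMSO cannot be told apart from the agents. RNA from each culture was hybridized to 1 single-color Agilent expression array, so there was 1 array per condition and no replicate. No p-value was therefore computed, and every ratio compares individual arrays rather than conditions. Per the labels, zinc sulfate at 16.7 μM was part of the medium of all 3 cultures, as were troglitazone at 10 μM, nicotinamide at 10 mM, serum at 10% and antibiotics at 1%, whereas the study's own methods name only serum and antibiotic as supplements. The cordyceps culture is known from the labels alone, which do not say what preparation it was. All 3 arrays are of a single cell line, and both ratios use the same control array.

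Metallothioneins are small cysteine-rich proteins that bind zinc and copper and take up cadmium and other heavy metals. Their genes are switched on by the zinc-sensing transcription factor MTF1, which binds metal response elements, short sequence motifs that often occur in several copies before the gene start. SLC30A1, which carries zinc out of the cell at the plasma membrane, is a textbook target of the same factor, and metallothionein genes are also known to respond to oxidants and to glucocorticoids. All 9 metallothionein members lie in a single cluster on chromosome 16 in the order MT2A, MT1E, MT1M, MT1A, MT1B, MT1F, MT1G, MT1H and MT1X, with further metallothionein genes and pseudogenes among them. SLC30A1 lies on chromosome 1.

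RefSeq promoter sequences on build GRCh38.p14 were matched for 5 of the 10 members. They are shown because they hold the metal response element cores through which this family is known to be controlled. The 250 bases before the annotated start lie at chr16:56608334-56608583 for MT2A, chr16:56651636-56651885 for MT1B, chr16:56669564-56669813 for MT1H and chr16:56682220-56682469 for MT1X, all on the + strand, and at chr1:211579162-211579411 on the - strand for SLC30A1. Each is written 5′ to 3′ on the strand of its gene, and capitals mark every match to the core TGCACNC or TGCGCNC on either strand.
MT2A: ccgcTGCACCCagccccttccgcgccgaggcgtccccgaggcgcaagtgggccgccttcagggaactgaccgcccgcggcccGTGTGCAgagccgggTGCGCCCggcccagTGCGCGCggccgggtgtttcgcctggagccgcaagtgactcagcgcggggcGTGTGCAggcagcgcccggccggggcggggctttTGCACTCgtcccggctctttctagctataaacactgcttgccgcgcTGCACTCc
MT1B: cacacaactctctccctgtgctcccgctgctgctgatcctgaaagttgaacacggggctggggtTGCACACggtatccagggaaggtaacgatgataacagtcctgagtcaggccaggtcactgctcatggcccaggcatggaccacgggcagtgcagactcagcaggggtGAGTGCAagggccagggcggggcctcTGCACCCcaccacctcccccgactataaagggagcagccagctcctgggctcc
MT1H: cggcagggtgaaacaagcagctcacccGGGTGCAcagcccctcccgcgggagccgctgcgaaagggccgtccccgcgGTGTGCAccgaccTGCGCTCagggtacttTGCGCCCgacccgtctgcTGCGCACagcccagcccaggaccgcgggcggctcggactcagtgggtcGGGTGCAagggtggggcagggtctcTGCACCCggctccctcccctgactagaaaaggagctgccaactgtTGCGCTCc
MT1X: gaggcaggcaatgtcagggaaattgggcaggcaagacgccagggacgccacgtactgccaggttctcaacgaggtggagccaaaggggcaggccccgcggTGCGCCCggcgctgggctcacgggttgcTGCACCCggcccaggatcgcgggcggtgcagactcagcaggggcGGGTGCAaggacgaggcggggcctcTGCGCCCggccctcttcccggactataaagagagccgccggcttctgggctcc
SLC30A1: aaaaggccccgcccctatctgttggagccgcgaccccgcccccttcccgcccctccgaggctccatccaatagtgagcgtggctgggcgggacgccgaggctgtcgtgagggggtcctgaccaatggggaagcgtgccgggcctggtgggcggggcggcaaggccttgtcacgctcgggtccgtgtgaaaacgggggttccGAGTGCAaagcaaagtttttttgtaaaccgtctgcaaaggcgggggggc

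The metallothionein windows were rich in this core. MT1H held 8 matches, MT2A 7, MT1X 4 and MT1B 3, and no match overlapped another. Over all 35116 promoters cut to the same 250 bases, 24.8% held at least 1 match, 1.58% at least 3, 0.370% at least 4, 0.0313% at least 7 and 0.0171% at least 8. SLC30A1 held 1 match. MT1B, MT1H and MT1X each had a match that began 53 bases before the start on the strand of the gene, and in MT2A the corresponding match began 54 bases before it. The same 3 MT1 genes also had a match on the opposite strand that began 78 or 79 bases before the start, whereas the nearest match on that strand in MT2A began 88 bases before it. MT1H and MT2A had a further match that began 8 bases before the start.

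Other motifs in these windows were less regular. The TATA box TATAAA, found in 10.7% of all promoters, occurred 1 time in MT1B, MT1X and MT2A and was not found in MT1H or SLC30A1. The GC box GGGCGG, found at least 1 time in 42.6% of all promoters, occurred 6 times in SLC30A1, a number reached by 2.22% of promoters, 2 times in MT1X and MT2A, and 1 time in MT1B and MT1H. The antioxidant response core TGACNNNGC, found in 10.9% of all promoters, occurred 1 time in MT1B, MT1X, MT2A and SLC30A1 and was not found in MT1H. Both strands were searched for each motif, and 1 GC box of MT1X overlapped a metal response element core. G and C made up 73.2% of the MT2A window, 70.4% of MT1H, 70.0% of MT1X, 66.4% of SLC30A1 and 62.4% of MT1B, against a mean of 57.2% over all promoters. A match describes the letters of the window and does not show binding.

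**Figure D1:**
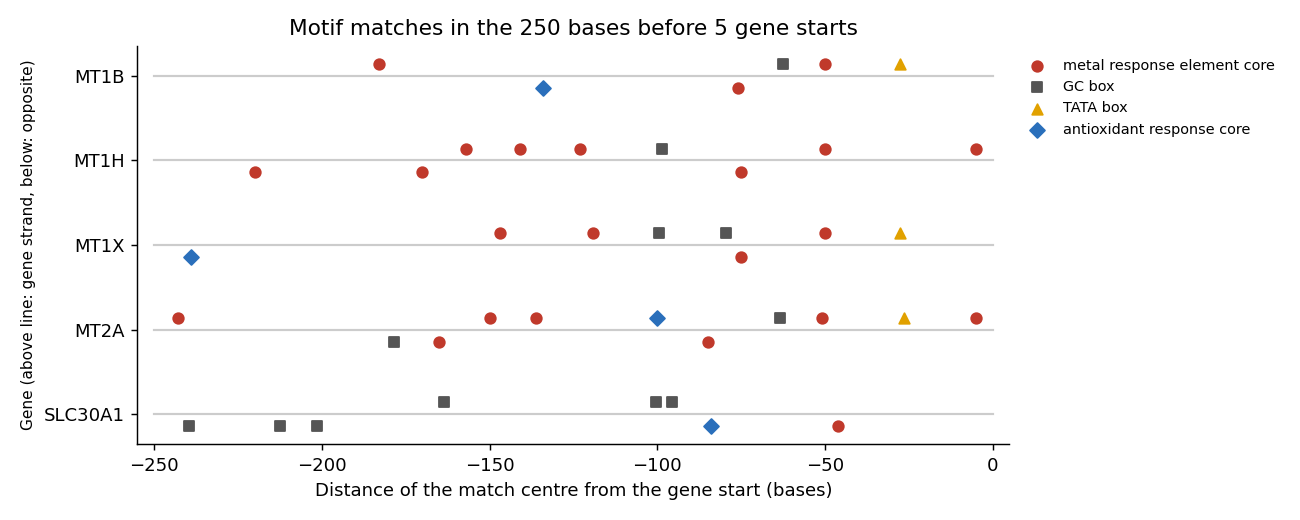
Positions of motif matches in the 250 bases before the starts of the 5 genes, with the distance of the match centre from the start in bases on the horizontal axis and 1 line per gene on the vertical axis. Matches on the strand of the gene stand above its line and those on the opposite strand below it; MT1H shows 8 metal response element cores and SLC30A1 shows 1.

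Facts of the arrays that touch these genes were as follows. Between 42.1% and 49.0% of all probes were well above background, the lower share on the cordyceps array, and 0 spots were saturated. The signal at the 75th percentile, by which each array was scaled, was 260 on the control, 224 on the cordycepin and 260 on the cordyceps array. In the corner of the slide above 5/8 of the rows and above 1/2 of the columns, local background was flagged as an outlier at 11.2% of spots on the cordyceps array and at 0% on the others. Of the 12 member probes, 3 lay in that corner (those of MT1A and MT1H and 1 of MT1B), and none of the 12 was flagged for its spot or its background on any array. The epithelial genes KRT8, KRT18, KRT19, EPCAM and CDH1 and the A549-typical genes AKR1B10 and AKR1C1 were well above background on all 3 arrays. Among markers of other cells, CD3E, COL3A1, ALB and CYP3A4 were not well above background on any array, and PTPRC, COL1A1 and CDH5 gave signals of at most 337.

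The members fell into a bright set and an undetected set, and the same genes were detected on all 3 arrays. MT1A, MT1B, MT1E, MT1F, MT1X, MT2A and SLC30A1 were well above background on every array. MT1G, MT1H and MT1M were not well above background on any array, although MT1H had the most metal response element cores of the 5 windows examined. A signal and a log2 ratio below are given per probe, as the processed intensity of the scanner software and as the log2 difference after scaling to the 75th percentile. The error of a ratio, from the spot errors that the software states, was 0.19 to 0.28 log2 units for detected member probes, and it covers the spot and not the culture. Measured from the arrays, the log2 ratio of a single probe had a spread of 0.25 for cordycepin and 0.20 for cordyceps. This is an SD from the median absolute difference over the 2 brightest probes of 3356 genes, and the plain SD was 0.35 and 0.34. With probes outside the corner only (2367 genes) the plain SD was 0.35 and 0.28. Both probes of a gene were read on the same arrays, so this spread also leaves out differences between cultures, RNA preparations and hybridizations. A ratio beyond 2 times the spread therefore does not show a difference between treatments.

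**Figure D2:**
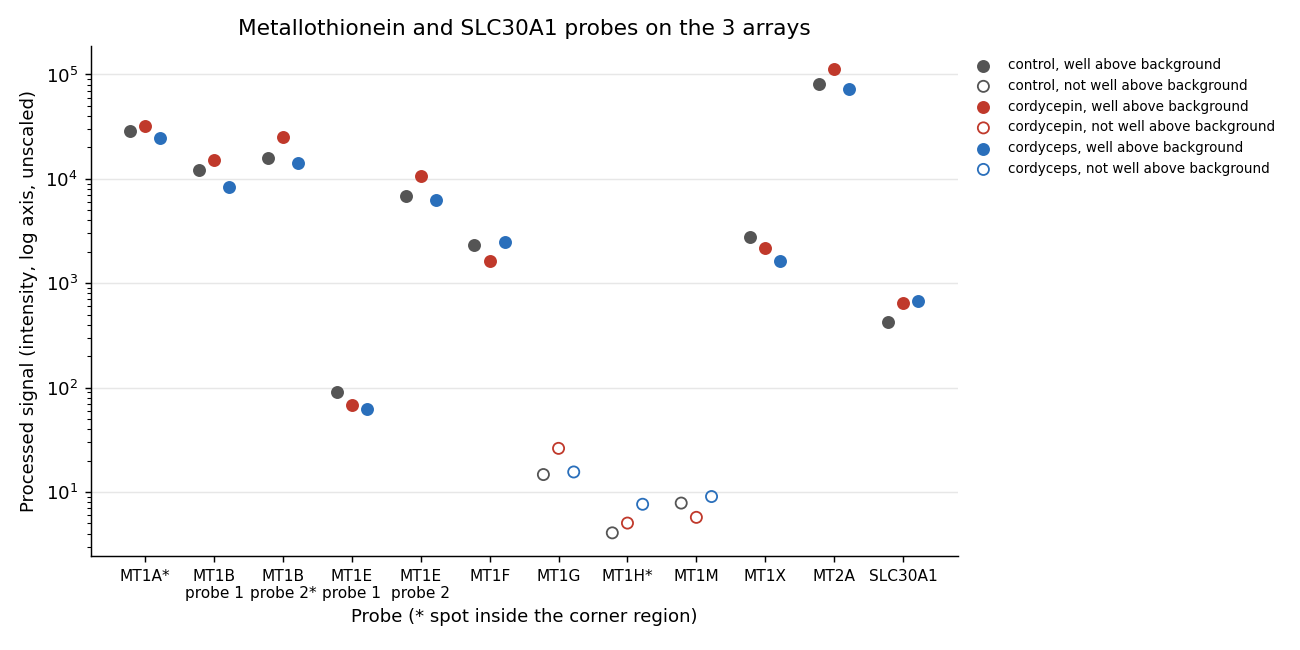
Processed signal (intensity on a log axis, not scaled between arrays) of the 12 member probes on the control, cordycepin and cordyceps arrays, 1 point per array. Filled points are well above background and open points are not; the MT1G, MT1H and MT1M points are all open, and the MT2A points lie between 72033 and 112508.

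No member differed from the control by 2-fold or more in either direction on either treated array. MT1G, MT1H and MT1M were detected on neither array and could not be called, so the counts are over the 7 detected members. With cordycepin, 0 of 7 were higher by that margin, where 6.01% of the 15762 genes that could be called were. None of the 7 was lower, where 3.61% were. A gene detected on 1 array only counted only where its scaled signal was above the lowest detected signal of the other array and above its own signal there. With cordyceps, 0 of 7 were higher, where 4.39% of 14902 genes were, and 0 were lower, where 3.30% were. At the smaller margin of 1.5-fold, MT1B, MT1E, MT2A and SLC30A1 (4 of 7) were higher with cordycepin, against 13.4% of genes, and 0 were lower, against 11.9%. Scaled to the median or left unscaled, 2 (MT1B and MT1E) were higher by that margin, with MT2A at 0.43 or 0.48 and SLC30A1 at 0.53 or 0.58 on the log2 scale. At the same margin with cordyceps, 1 member (SLC30A1) was higher, against 8.69% of genes, and 1 (MT1X) was lower, against 13.1%. SLC30A1 missed the margin under normexp, a convolution model of the background, and MT1X under median scaling. Whether the metallothionein probes read separate genes was not tested, so these members may not be independent readings. The median log2 ratio of the 7 measured members was 0.69 with cordycepin, beside -0.05 over all 14600 measured genes, and -0.16 with cordyceps, beside -0.11 over 13889 genes. Without SLC30A1 the medians over 6 members were 0.54 and -0.16.

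MT2A, a widely expressed metallothionein gene, had a signal of 80894 on the control, 112508 on the cordycepin and 72033 on the cordyceps array (probe A_23_P106844). It was highest with cordycepin, while the other arrays lay close together. The log2 ratio to the control was 0.69 (1.61-fold) with cordycepin and -0.17 with cordyceps. The cordycepin value exceeded 2 times the spread of 0.25 and fell just short of 2 times the plain SD of 0.35, and the cordyceps value was within a single SD.

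The MT1E gene, an MT1 isoform, was read by a pair of probes that disagreed. Probe A_23_P206724 gave signals of 6781 on the control, 10742 on the cordycepin and 6340 on the cordyceps array, which are log2 ratios of 0.88 (1.84-fold) and -0.10. Probe A_21_P0000671 gave 91.4, 68.0 and 61.8 in the same order, or log2 ratios of -0.21 and -0.56. The brighter probe was used for the gene, and by the other probe MT1E was not higher with cordycepin.

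MT1B was also read by a pair of probes, which gave the same direction. Probe A_23_P37983, inside the corner, gave signals of 15810 on the control, 25208 on the cordycepin and 14148 on the cordyceps array, or log2 ratios of 0.89 (1.85-fold) and -0.16. Probe A_22_P00010235, outside the corner, gave 12034, 15296 and 8267, or log2 ratios of 0.56 (1.47-fold) and -0.54. By the probe outside the corner MT1B was thus just under 1.5-fold higher with cordycepin and 1.46-fold lower with cordyceps. The signals of the probe inside the corner were close to those of the related MT1L (16425, 25638 and 14226). Whether the probes of MT1B and MT1L read separate transcripts was not tested.

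MT1A, whose single probe lay inside the corner (A_23_P54840), gave 28519.9 on the control, 32078 on the cordycepin and 24659.6 on the cordyceps array. Its log2 ratios of 0.38 (1.30-fold) with cordycepin and -0.21 with cordyceps were within 2 times the single-probe spread.

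MT1F and MT1X did not share the higher cordycepin signal. MT1F gave 2302 on the control, 1629 on the cordycepin and 2459.92 on the cordyceps array, with log2 ratios of -0.29 and 0.09 (probe A_23_P15174), both within 2 times the spread. MT1X gave 2781 on the control, 2178 on the cordycepin and 1629 on the cordyceps array (probe A_33_P3236868). Its log2 ratio was -0.14 with cordycepin, within the spread, and -0.77 (1.71-fold lower) with cordyceps, beyond 2 times the spread of 0.20. The cordyceps value was -0.50 under median scaling, which is under 1.5-fold. It was also within 2 times the plain SD of 0.34 there, with the corner left out (-0.66), under quantile normalization and with the 75th percentile of probes detected on all arrays (both -0.68). Against the plain SD of 0.28 outside the corner, where this probe lay, only the value under median scaling was within 2 times.

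SLC30A1 was higher on both treated arrays. Its signal was 429.5 on the control, 641 on the cordycepin and 672 on the cordyceps array (probe A_23_P23815). The control lay lowest, and the log2 ratios were 0.79 (1.73-fold) with cordycepin and 0.65 (1.56-fold) with cordyceps. Both exceeded 2 times the spread from the median absolute difference. The cordyceps value was under 2 times the plain SD of 0.34 over all probes, and over 2 times that of 0.28 outside the corner. Under median scaling and unscaled the cordycepin value was 0.53 and 0.58, and under normexp the cordyceps value was 0.42, each below 1.5-fold. The agents and doses differ, so the treated arrays were not set against each other.

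The undetected members have only upper limits. MT1G gave signals of 14.7, 26.2 and 15.6 on the control, cordycepin and cordyceps arrays, MT1H 4.06, 5.04 and 7.63, and MT1M 7.83, 5.72 and 9.05. The lowest signal of any probe well above background was 18.6 on the control, 21.8 on the cordycepin and 34.5 on the cordyceps array. No ratio was taken for these genes, and the cordycepin signal of MT1G was above that lowest signal although its spot was not scored as well above background.

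**Figure D3:**
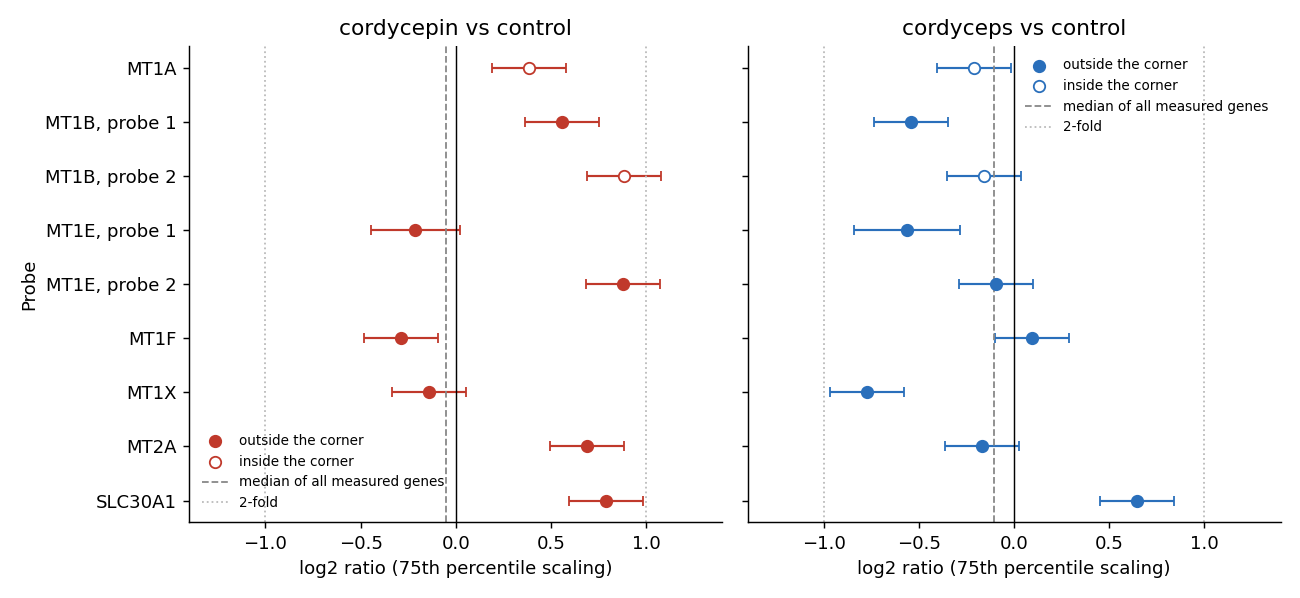
Log2 ratio to the control array of the 9 detected member probes, cordycepin on the left and cordyceps on the right, with error bars from the spot errors stated by the scanner software; dashed lines mark the median of all measured genes and dotted lines 2-fold. The MT1A and MT1B probe 2 points (open) lay inside the corner, and MT1E probe 2, MT2A and SLC30A1 lie at 0.88, 0.69 and 0.79 with cordycepin.

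How far these ratios depend on the centre of each array was read from their distance to the median of all measured genes. That distance does not move with a single scaling factor, although the median itself does. Relative to that median, the cordycepin log2 ratio was 0.94 for MT1B, 0.93 for MT1E, 0.84 for SLC30A1, 0.74 for MT2A and 0.43 for MT1A, and it was -0.09 for MT1X and -0.23 for MT1F. With cordyceps it was 0.75 for SLC30A1 and 0.20 for MT1F, 0.01 for MT1E, -0.05 for MT1B, -0.06 for MT2A, -0.10 for MT1A and -0.66 for MT1X. On that scale MT1A, MT1B, MT1E and MT2A lay between -0.10 and 0.01 on the cordyceps array. When arrays were scaled to their medians instead, which moved the median of all measured genes from -0.05 to -0.32 with cordycepin and from -0.11 to 0.16 with cordyceps, the cordyceps ratios of those 4 genes turned positive, at 0.06 for MT1A, 0.11 for MT1B, 0.17 for MT1E and 0.10 for MT2A. The signs of all 7 cordycepin ratios and of the cordyceps ratios of MT1F, MT1X and SLC30A1 were the same under every alternative that gave a value.

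**Figure D4:**
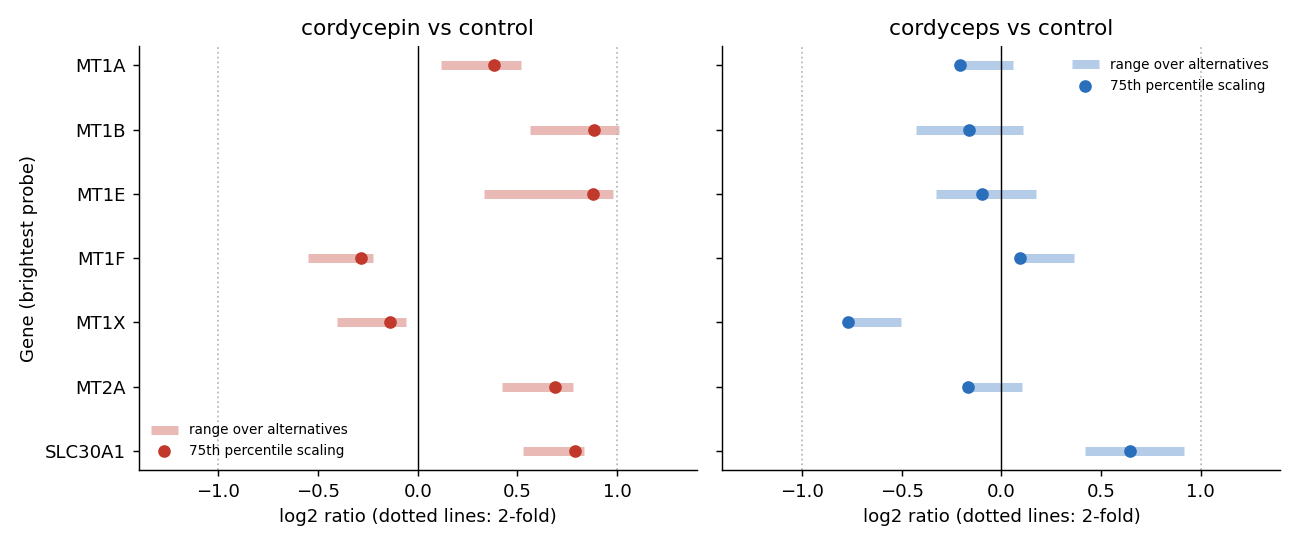
Log2 ratio of the brightest probe of each detected member (points) and the range of that value over the processing alternatives (bars), cordycepin on the left and cordyceps on the right. The cordycepin bars of MT1A, MT1B, MT1E, MT2A and SLC30A1 stay above 0, and the cordyceps bars of MT1A, MT1B, MT1E and MT2A cross it.

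Other metallothionein genes and pseudogenes were looked at as a fixed list of 8, of which 6 had a probe. MT1L gave 16425 on the control, 25638 on the cordycepin and 14226 on the cordyceps array, with log2 ratios of 0.86 and -0.21. The local background of its spot was flagged as an outlier on the control and cordyceps arrays. MT1HL1, a related gene on chromosome 1, gave 9582, 13871 and 7618, with log2 ratios of 0.75 and -0.33. MT3, known from brain, gave 3089, 2770.34 and 3146, with log2 ratios of 0.06 and 0.03 (inside the corner, its background flagged on the cordyceps array). The pseudogene MT1DP, whose probe lay inside the corner, gave 68.3, 47.7 and 22.6, with a log2 ratio of -0.30 for cordycepin, and it was at least 1.98-fold lower on the cordyceps array, where it was not well above background. MT1IP was well above background on the control array only, at least 1.45-fold lower with cordycepin and at least 1.07-fold lower with cordyceps, and MT4 was not well above background on any array. These genes are close in sequence to the MT1 members. Whether a probe separates a member from its near-identical relatives was not tested, since the probe sequences were not used here.

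The zinc handling list held MTF1, the SLC30 exporters other than SLC30A1 and the SLC39 importers. Of its 24 genes, 19 were well above background on all 3 arrays. With cordycepin, 0 of the 19 were higher and 1 (SLC39A5) was lower by 2-fold or more, against 6.01% and 3.61% of all genes. With cordyceps 1 (SLC30A6) was higher and 0 were lower, against 4.39% and 3.30%. The median log2 ratio of the 19 measured genes was -0.14 with cordycepin and -0.08 with cordyceps, beside -0.05 and -0.11 over all measured genes.

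MTF1 itself, the factor that binds the metal response element, gave 327 on the control, 286 on the cordycepin and 308 on the cordyceps array, with log2 ratios of 0.02 and -0.08. Its probe lay inside the corner, and both ratios were within the single-probe spread. SLC39A5, a zinc importer, gave 166.9, 37.8 and 119.9, with log2 ratios of -1.93 and -0.48. SLC30A6, a zinc transporter of the Golgi, gave 57.4, 60.0 and 127, with log2 ratios of 0.28 and 1.14. These dim values depend on the background correction: under normexp the cordycepin ratio of SLC39A5 was -0.89 and the cordyceps ratio of SLC30A6 was 0.51.

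SLC39A14, an importer of zinc and of other divalent metals, gave 5834 on the control, 5023 on the cordycepin and 11076 on the cordyceps array, with log2 ratios of 0.00 and 0.92. Its other probe gave 35.3, 40.9 and 71.1, with log2 ratios of 0.42 and 1.01. SLC39A8, an importer of zinc that also carries manganese and cadmium, gave 2702, 4397 and 3779, with log2 ratios of 0.92 and 0.48, whereas its other probe, inside the corner, gave -0.66 and -0.24. SLC30A4 was lower by 1.5-fold or more on both treated arrays (log2 ratios -0.66 and -0.78, inside the corner) and SLC39A10 on the cordyceps array (-0.85). SLC39A8, SLC39A14, SLC30A4 and SLC39A10 were named after their values were seen.

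**Figure D5:**
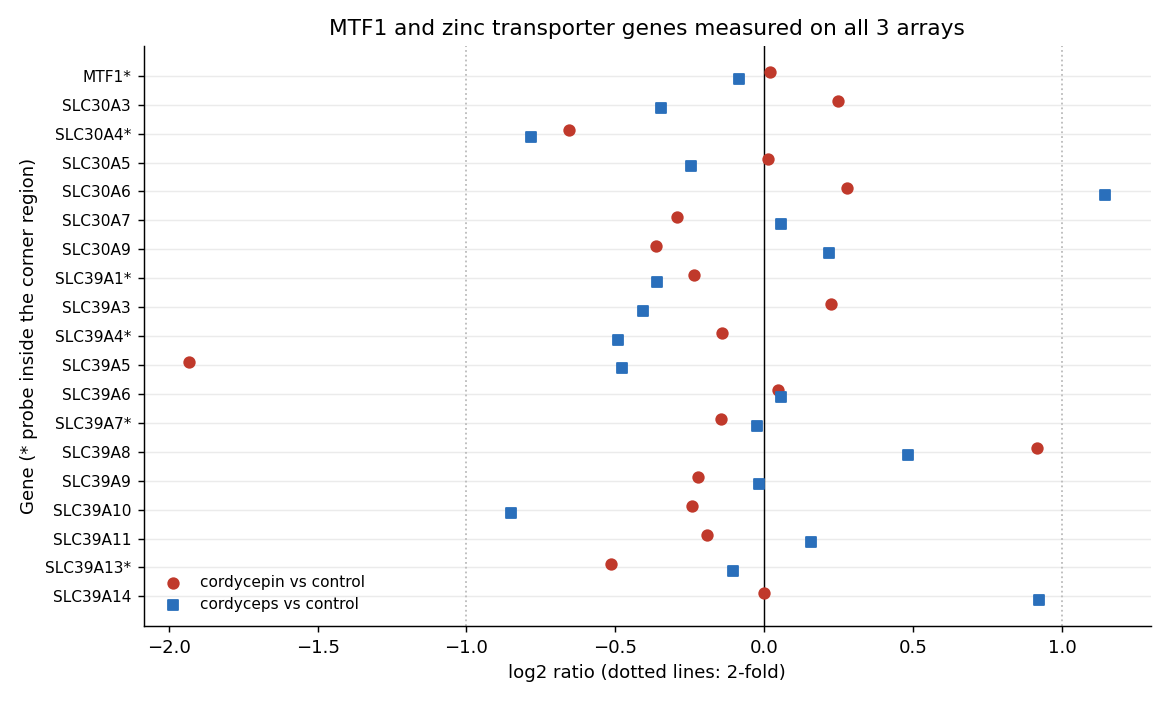
Log2 ratio to the control array (horizontal axis) of the 19 genes of the zinc handling list measured on all 3 arrays, circles for cordycepin and squares for cordyceps, 1 probe per gene. SLC39A5 at -1.93 and SLC30A6 at 1.14 lie beyond the dotted lines at 2-fold.

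Genes of copper handling and genes known to answer to other inducers of metallothionein were read in the same way. Of 10 copper handling genes, 0 passed 2-fold in either direction with either agent. Over all genes, 6.01% were higher and 3.61% lower by that margin with cordycepin, and 4.39% and 3.30% with cordyceps. Of 13 genes known to respond to metals or oxidants, 1 was higher and 1 lower by 2-fold or more with cordycepin. With cordyceps 12 of them could be called, and 0 were higher and 2 lower. At 1.5-fold, 2 of the 13 were higher and 4 lower with cordycepin, and 3 of the 12 were higher and 3 lower with cordyceps. Of the copper handling genes, 0 passed 1.5-fold with cordycepin, and with cordyceps 0 were higher and 2 lower. Over all genes the 1.5-fold shares were 13.4% higher and 11.9% lower with cordycepin, and 8.69% and 13.1% with cordyceps. Such small counts were not tested against the shares over all genes. HMOX1, the haem-degrading enzyme induced by oxidants and cadmium, gave 11232 on the control, 4682 on the cordycepin and 8635 on the cordyceps array, with log2 ratios of -1.05 and -0.38. Its probe had 10 spots on each array, of which 2 on the control were left out as outliers. Under quantile normalization its cordycepin ratio was -0.94, short of 2-fold. The heat shock gene HSPA6 gave 27.1, 176.3 and 12.5, the last not well above background, with a cordycepin log2 ratio of 2.92, but its other probe gave -0.17 and under normexp the ratio was 1.58. HSPA1A gave 15868, 11349 and 6098, with log2 ratios of -0.27 and -1.38, and HSPA1B gave 5417, 4077 and 2185, with log2 ratios of -0.20 and -1.31. HSPA1A and HSPA1B are near-identical, so their probes may not read them separately.

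Of 10 genes known to respond to glucocorticoids, 9 could be called, and 1 was higher with each agent by 2-fold or more and 0 were lower. The shares over all genes were 6.01% higher and 3.61% lower with cordycepin, and 4.39% and 3.30% with cordyceps. At 1.5-fold, 1 was higher and 0 lower with cordycepin, against 13.4% and 11.9% of genes. With cordyceps 2 were higher and 1 lower by that margin, against 8.69% and 13.1%. The clock gene PER1 gave 337 on the control, 674 on the cordycepin and 508 on the cordyceps array, with log2 ratios of 1.21 and 0.59. Scaled to the median, the cordycepin ratio of PER1 was 0.95, and unscaled it was just below 1.00. TSC22D3, also known as GILZ, gave 2061, 2405 and 4932, with log2 ratios of 0.44 and 1.26.

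Outside these lists, genes were ranked by how near their pair of log2 ratios lay to a centre of the members. The search covered 11192 genes that were well above background on all 3 arrays and outside the corner. The centre was the median over MT1E, MT1F, MT1X, MT2A and SLC30A1, the 5 members that met the same conditions, at 0.69 with cordycepin and -0.10 with cordyceps. CYTH3 (0.67 and -0.10), RP2 (0.68 and -0.09) and LINC01574 (0.71 and -0.11) lay nearest, at distances of 0.015, 0.016 and 0.024 log2 units over the 2 ratios. Within 0.25 log2 units of the centre lay 329 genes. The centre takes the median of each ratio separately, and MT1F, MT1X and SLC30A1 themselves lay farther from it than that.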

How the data were processed

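Total RNA of 3 A549 cultures was measured on 1 Agilent single-color array each. The authors deposited, per the file headers, the output of Feature Extraction 11.5.1.1, whose intensity values are background-subtracted within the array and not scaled between arrays, and a value table with the mean intensity of each probe. The study names GeneSpring for normalization. Its methods describe vehicle and cordycepin RNA as labeled with a different dye each, whereas the deposited arrays hold 1 channel.

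Control spots and outlier spots were left out, log2 intensity was averaged over the spots of a probe, and each array's 75th percentile was subtracted. A probe was detected if 50% or more of its spots stood well above background, and a gene was read by its brightest probe. Where a probe was detected on 1 array of a pair, the ratio is a lower bound. It was taken against the lowest signal well above background on the other array, or the probe's own signal there if higher. A bound that left no difference was not used, and the gene was not called. A call was a difference of 2-fold or more. Of 58201 probes, 31104 were named through RefSeq accessions (GRCh38.p14). The array design names build GRCh37, so coordinates come only from the RefSeq promoter table. Named were all members, every list gene past 2-fold, MTF1 and the 3 nearest genes. The calling step was tested on simulated data with changes larger than 2-fold. That test does not cover smaller ratios or bounds. Alternatives changed the scaling, background correction (normexp, offset 50, limma 3.58.1 in R 4.3.3), detection, spot and probe choice, threshold and the corner. Python 3.11.15 was used. The members and lists were chosen with earlier results of these data known.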

Additional observations from a re-analysis of the deposited data

How the results depend on the processing

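With 1 array per condition, no alternative measures the spread between cultures. Among 166 member log2 ratios recomputed under alternatives, 147 moved by less than the single-probe spread and 19 by more. The detection alternatives cannot move the ratio of a detected member. Neither can the median over probes where a gene has a single probe. The 147 thus include values fixed in advance, and their number does not measure robustness. Causes of the member ratios were not tested.

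The cordycepin median of 0.69 was 0.43 under median scaling and 0.38 with the median over the probes of a gene. The cordyceps median of -0.16 was 0.11 under median scaling. With cordycepin, 1 member was higher by 2-fold under quantile normalization (MT1B) and 1 without a detection filter or with the laxer positive-and-significant filter (MT1G). At 1.5-fold, 4 members were higher with cordycepin, and 1 was higher and 1 lower with cordyceps. Recounted at 1.5-fold under the other alternatives, a check chosen after seeing the data, the 4 became 2 under median scaling and unscaled, 3 with the corner left out (without MT1B) or with the median over probes (without MT1E), and 5 under either laxer detection rule. The higher cordyceps count became 0 under normexp and 2 without a detection filter, and the lower one 0 under median scaling.

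In the zinc handling list, 0 genes in place of 1 were lower with cordycepin under normexp, and at 1.5-fold 1 was higher and 2 were lower. With cordyceps, 2 in place of 1 were higher under median scaling, the 75th percentile of probes detected on all arrays, quantile normalization, the corner left out and 1.5-fold, 0 were higher at 3-fold, and 2 were lower at 1.5-fold. Under normexp the single higher gene was SLC39A14 and no longer SLC30A6. Over all genes at 1.5-fold, 13.4% were higher and 11.9% lower with cordycepin, and 8.69% and 13.1% with cordyceps.

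Over all genes, 2-fold calls with cordycepin were 947 higher and 569 lower, against 596 and 1179 under median scaling, 655 and 1007 unscaled, 388 and 271 under normexp, 573 and 446 where detection on both arrays was required, and 1863 and 1078 without a detection filter. With cordyceps they were 654 and 492, against 962 and 208 under median scaling, 429 and 232 under normexp and 971 and 1156 without a detection filter, and 416 were higher where detection on both arrays was required. Without the corner the cordyceps counts were 441 and 291. No paired analysis was possible because each condition had 1 array.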
